A study of Mus musculus with 12 samples.

Results

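Striatal projection neurons were followed through 9 of the 19268 genes in the table: Drd1, Drd2, Adora2a, Gpr6, Ppp1r1b, Adcy5, Pde10a, Rgs9 and Rasd2. They were taken by name, as genes that these neurons are known to express strongly. The rule uses no measured value, although earlier results of these data were known when the list was made. RNA was measured in the forebrain of male C57BL/6J mice, which were wild-type (WT) or knock-out (KO) for Shank3, a scaffold gene of excitatory synapses. KO mice were homozygous for an allele that lacks internal exons of the gene. Juvenile mice were taken at postnatal day 25 (P25) and adult mice at postnatal day 60 (P60), and each genotype had 3 libraries at either age (groups P25-WT, P60-WT, P25-KO and P60-KO). The study's methods describe the tissue as forebrain from which the olfactory bulb had been removed, so striatum was 1 of several regions in every library. No reporter, sort or dissection of the striatum itself was used.

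Striatal projection neurons are the GABA-releasing principal cells of the striatum. Those of the direct pathway carry the dopamine D1 receptor, which raises cAMP, and those of the indirect pathway carry the dopamine D2 receptor, which lowers cAMP, together with the adenosine receptor encoded by Adora2a, which raises it. In both kinds of cell cAMP is made mainly by adenylyl cyclase 5, is broken down by phosphodiesterases such as PDE10A, and acts through protein kinase A on DARPP-32, an inhibitor of protein phosphatase 1.

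The sequences just upstream of annotated starts are shown for 4 members: Adcy5 and Pde10a, because their levels moved in opposite directions with age, and Drd2 and Gpr6, because both are receptors of the indirect pathway. Each is the 250 bases before a RefSeq transcription start, written 5′ to 3′ on the gene's strand, in assembly GRCm38.p6. They lie at chr16:35154614-35154863 on the plus strand for Adcy5, chr17:8849735-8849984 on the plus strand for Pde10a, chr9:49340153-49340402 on the plus strand for Drd2 and chr10:41072291-41072540 on the minus strand for Gpr6. None of these 4 windows overlapped an annotated exon, and that of Pde10a lay inside the gene, before an internal start. Capitals mark the cAMP response element TGACGTCA, its shorter core TGACG, which the full element contains, and the GC box GGGCGG, each on either strand.
Adcy5 promoter: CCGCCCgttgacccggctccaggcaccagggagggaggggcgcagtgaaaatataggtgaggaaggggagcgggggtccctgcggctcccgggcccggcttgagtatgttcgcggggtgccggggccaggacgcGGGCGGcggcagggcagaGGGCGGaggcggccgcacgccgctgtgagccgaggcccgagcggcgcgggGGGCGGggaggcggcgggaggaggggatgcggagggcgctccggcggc
Pde10a promoter: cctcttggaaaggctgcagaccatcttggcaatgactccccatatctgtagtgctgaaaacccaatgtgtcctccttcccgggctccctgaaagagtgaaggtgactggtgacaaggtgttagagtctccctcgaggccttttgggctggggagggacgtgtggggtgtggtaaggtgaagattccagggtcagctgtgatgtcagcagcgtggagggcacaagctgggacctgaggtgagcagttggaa
Drd2 promoter: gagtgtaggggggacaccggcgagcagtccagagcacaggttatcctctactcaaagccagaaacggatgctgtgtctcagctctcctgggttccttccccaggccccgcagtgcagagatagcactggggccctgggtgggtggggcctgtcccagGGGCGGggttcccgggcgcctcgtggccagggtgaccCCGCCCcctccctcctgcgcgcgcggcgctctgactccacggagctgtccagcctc
Gpr6 promoter: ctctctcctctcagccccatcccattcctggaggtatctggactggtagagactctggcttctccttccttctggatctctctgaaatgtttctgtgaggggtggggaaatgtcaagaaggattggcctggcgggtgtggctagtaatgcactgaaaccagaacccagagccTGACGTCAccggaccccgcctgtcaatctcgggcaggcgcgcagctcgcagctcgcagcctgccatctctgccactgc

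The Gpr6 window held the cAMP response element, which 1.55% of 32851 such windows in the genome held, and 17.8% held the core. The Adcy5 window held 4 GC boxes and the Drd2 window 2, and 32.7% of all windows held at least 1. The Pde10a window shown held none of these motifs, whereas a second Pde10a window, at chr17:8801495-8801744 on the plus strand, held 1 GC box. That window is not printed because 52 of its bases lie in an annotated exon. The shorter CCAAT box CCAAT, in 33.8% of all windows on either strand, was found for Gpr6 and Pde10a, and the TATA box TATAAA, in 12.4%, for none of the 4. GC content was 78.0% for Adcy5, 68.8% for Drd2, 58.4% for Gpr6 and 56.0% for the Pde10a window shown (72.8% for the other), against a median of 52.4% over all windows. These matches describe the letters only. Windows were found for 7 of the 9 members, and Ppp1r1b and Adora2a had none.

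Levels are given as normalized counts, the authors' estimated read counts divided by their scaling factors. Totals were 31577834 to 32348554 normalized counts at P25 and 30568259 to 31077647 at P60. The values are not whole reads, so their depth is unknown, and with 3 libraries a group the precision is limited. Shank3 had 4535 to 5729 normalized counts in KO libraries and 8936 to 11680 in WT libraries, with no overlap at either age. The titles only number the libraries as replicates, and the study counts them as mice, so p-values measure the spread between mice handled as single libraries. In bulk tissue, fewer cells of a type and less RNA per cell cannot be told apart.

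All 9 members were present in all 12 libraries. Per kb of exon, the mean level over the 12 libraries was highest for Ppp1r1b, at 2648 ± 362 normalized counts per kb (SD, n = 12). Adcy5 followed at 1579 ± 133 and Rasd2 at 1282 ± 55.7. The ranges of these 3 genes overlapped neither each other nor the next gene. Lower down, the means were 587.9 for Pde10a, 442.1 for Adora2a, 384.0 for Drd2, 351.8 for Rgs9, 273.4 for Drd1 and 200.4 for Gpr6. From Pde10a to Gpr6 each gene's range over the libraries overlapped that of the next gene. When the longest transcript was used in place of all exons, the mean rose to 972.3 for Pde10a and to 648.9 for Rgs9, which then had rank 5, above Adora2a and Drd2. Within a library Rgs9 exceeded Drd1, and Drd1 exceeded Gpr6, in 12 of 12 libraries.

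**Figure D1:**
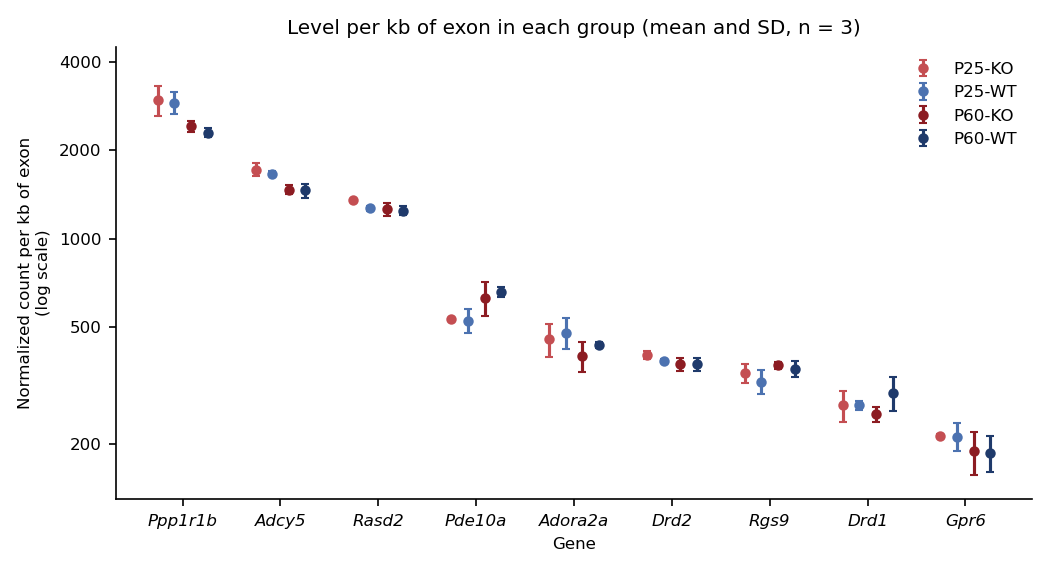
Normalized counts per kb of exon on a log scale, with the mean and SD of the 3 libraries of each group, for the members in order of level. Ppp1r1b stands at the top with a mean of 2648 over the 12 libraries and Gpr6 at the bottom with 200.4, and from Pde10a (587.9) downward neighbouring genes overlap.

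The receptors were examined first. Drd1, the D1 receptor gene (ENSMUSG00000021478, GRCm38 chromosome 13, 54051183 to 54055705), had 849, 1083 and 1017 normalized counts in P25-KO, 941.8, 1009 and 996.3 in P25-WT, 853.3, 944.4 and 955.4 in P60-KO, and 1086, 940.1 and 1225 in P60-WT. Values in all 4 groups overlapped, with the highest in P60-WT replicate 3 and the lowest in P25-KO replicate 1. At P60 the mean was 917.7 ± 56.1 in KO and 1084 ± 143 in WT (SD, n = 3). The log2 fold change was -0.23 ± 0.10 (SE), with an unadjusted p of 0.042 and an adjusted p of 1.0 (limma, Benjamini-Hochberg over all genes), and so was not called. It ranged from -0.33 to -0.14 when 1 library was left out. At P25 the log2 fold change was -0.01 ± 0.11, and its sign turned under several settings.

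Drd2, the D2 receptor gene (ENSMUSG00000032259, chromosome 9, 49340627 to 49408177), had 1059, 997.1 and 1026 in P25-KO, 970.1, 969.3 and 994.5 in P25-WT, 909.8, 941.1 and 1010 in P60-KO, and 969.3, 897.9 and 992.1 in P60-WT. At P25 every KO library lay above every WT library, by a small margin, and at P60 the groups overlapped. The P25 means were 1027 ± 30.8 in KO and 978.0 ± 14.3 in WT (SD, n = 3), a difference of 5.02% with a 95% interval from -6.98% to 18.6%.

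Adora2a, the adenosine receptor gene of indirect-pathway neurons (ENSMUSG00000020178, chromosome 10, 75316877 to 75334784), had 1215, 1566 and 1397 in P25-KO, 1357, 1667 and 1381 in P25-WT, 1136, 1147 and 1388 in P60-KO, and 1367, 1305 and 1320 in P60-WT. All groups overlapped, and the highest values were those of replicate 2 in both P25 groups. Gpr6, an orphan receptor gene of indirect-pathway neurons (ENSMUSG00000046922, chromosome 10, 41069977 to 41072285), was the lowest member. It had 374.5, 383.2 and 386.8 in P25-KO, 358.9, 427.1 and 350.9 in P25-WT, 287.3, 326.4 and 397.9 in P60-KO, and 324.8, 292.9 and 384.8 in P60-WT. Replicate 3 was the highest library in both P60 groups, so that the ages overlapped.

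Among the enzymes and regulators that act with the receptors, 3 differed between the ages. Ppp1r1b, which encodes DARPP-32 (ENSMUSG00000061718, chromosome 11, 98348404 to 98357796), had 7978, 8255 and 9879 in P25-KO, 7870, 9299 and 8332 in P25-WT, 7030, 7409 and 6764 in P60-KO, and 6617, 7016 and 6582 in P60-WT. The 6 libraries of P60 all lay below the 6 of P25. An annotated transcript on the other strand, 1700003D09Rik, covers 460 bases of Ppp1r1b exon (15.71%). The library kit does not mark strand, so reads of the shared stretch cannot be assigned to either gene.

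Adcy5, the gene of adenylyl cyclase 5 (ENSMUSG00000022840, chromosome 16, 35154877 to 35305738), had 11627, 12813 and 12623 in P25-KO, 12156, 11720 and 12005 in P25-WT, 10183, 10586 and 10931 in P60-KO, and 10609, 9865 and 11018 in P60-WT. Again all P60 libraries lay below all P25 libraries. Pde10a, whose product hydrolyses cAMP and cGMP (ENSMUSG00000023868, chromosome 17, 8525372 to 8986648), moved the other way, with 6825, 6872 and 6914 in P25-KO, 6798, 6146 and 7377 in P25-WT, 7609, 7351 and 9335 in P60-KO, and 8672, 8128 and 8622 in P60-WT. Within each genotype all P60 libraries exceeded the P25 libraries, and over both genotypes only P25-WT replicate 3 and P60-KO replicate 2 crossed. P60-KO replicate 3 was the highest of the 12.

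Rgs9, a regulator that speeds the shut-off of Gi and Go proteins (ENSMUSG00000020599, chromosome 11, 109225355 to 109298129), had 2042, 2293 and 2342 in P25-KO, 2123, 1881 and 2260 in P25-WT, 2387, 2297 and 2421 in P60-KO, and 2144, 2416 and 2367 in P60-WT. KO and WT overlapped at both ages, the lowest value was that of P25-WT replicate 2, and all P60-KO libraries lay above all P25-WT libraries. Rasd2, which encodes the small GTPase Rhes (ENSMUSG00000034472, chromosome 8, 75213944 to 75224113), had 4228, 4344 and 4310 in P25-KO, 4120, 4036 and 3938 in P25-WT, 3807, 3997 and 4193 in P60-KO, and 4008, 3801 and 4080 in P60-WT. P25-KO stood above the other groups in all 3 libraries, and those other groups overlapped.

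**Figure D2:**
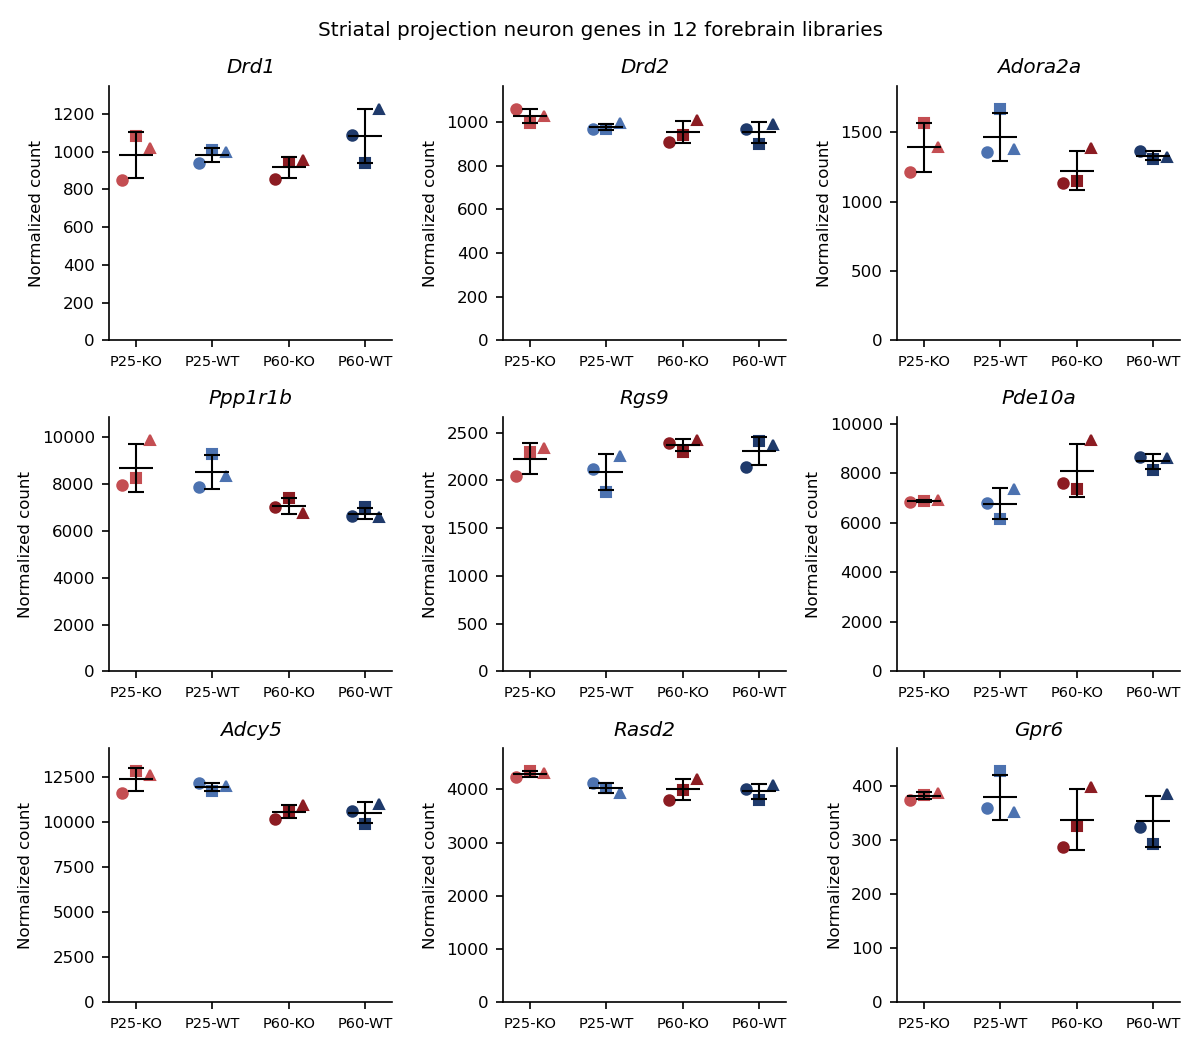
Normalized counts of each member in the 12 libraries by group, with circles, squares and triangles for replicates 1, 2 and 3, a bar for the mean and whiskers for the SD (n = 3), on axes that start at 0. The P60 libraries are lower for Ppp1r1b (6582 to 7409, against 7870 to 9879 at P25) and Adcy5, Pde10a is higher in P60 libraries, and the KO and WT libraries overlap at P60 for every member.

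KO was then compared with WT to ask whether loss of Shank3 changed these genes. No member was called at P25, at P60 or over both ages (0 of 9 each, limma, Benjamini-Hochberg adjusted p under 0.05 over all genes, adjusted p 1.0 for each member). At an unadjusted p under 0.05 the counts were 0 at P25, 1 at P60 (Drd1) and 0 over both ages. Of all genes tested, 0.00571% were called at P25, 0.00568% at P60 and 0.00568% over both ages, which was Shank3 alone in each comparison. The genes at an unadjusted p under 0.05 numbered 238 of 17515 at P25, 440 of 17610 at P60 and 361 of 17594 over both ages.

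Over both ages the members' log2 fold changes ran from -0.12 ± 0.08 (SE) for Drd1 to 0.07 ± 0.05 for Rgs9, with a median of 0.03 against -0.004 over all genes. The 95% intervals of the 9 members lay between -18.0% and 15.3%. Among the receptors of the indirect pathway, Drd2 changed by 2.49% (-4.54% to 10.1%), Gpr6 by 0.847% (-11.8% to 15.3%) and Adora2a by -6.85% (-16.5% to 3.92%). The most tightly bounded members were Rasd2, at 3.66% (-2.10% to 9.76%), and Adcy5, at 1.96% (-3.79% to 8.06%). Differences of a few percent were thus not detectable with these libraries.

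KO and WT libraries did not overlap at P25 for 2 of 9 members, Drd2 and Rasd2, both higher in KO, where 4.76% of all genes did not overlap. At P60 this held for 0 of 9 members against 7.79% of all genes, and over both ages for 0 of 9 against 0.0739%. The P25 difference of Rasd2 was 6.52% (-3.57% to 17.7%, limma unadjusted p = 0.184). The genotype by age interaction, which asks whether the effect of the mutation differed between the ages, was called for 0 of 9 members and for 0.0% of all genes, with 288 genes at an unadjusted p under 0.05. Its largest estimate among the members was that of Drd1, -0.23 ± 0.15 (SE, limma unadjusted p = 0.157). That estimate ranged from -0.33 to -0.13 when 1 library was left out.

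**Figure D3:**
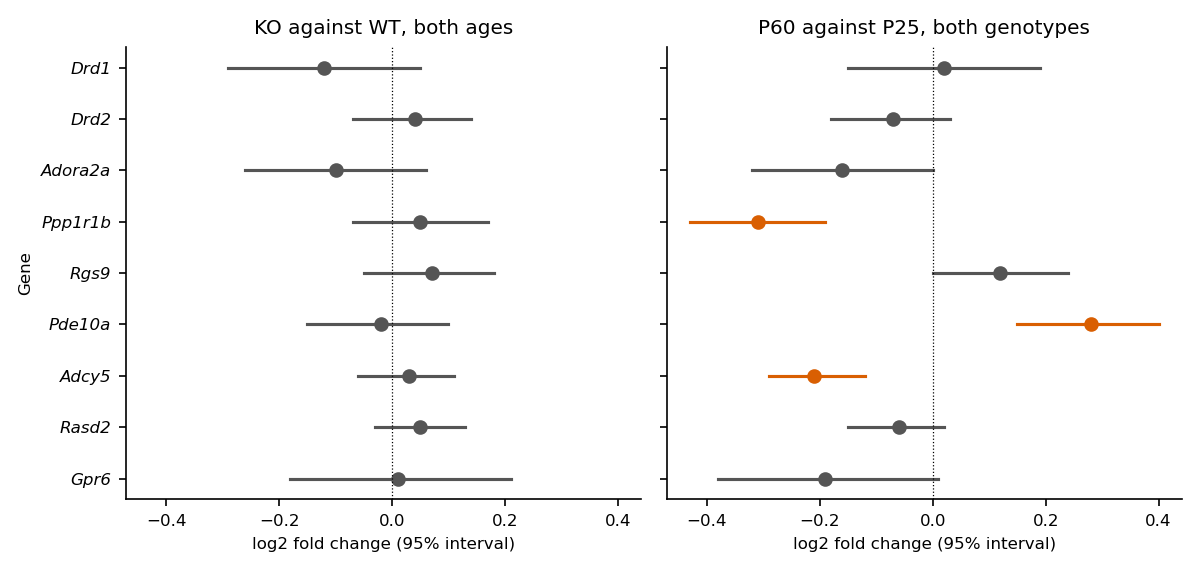
log2 fold changes of the members with 95% intervals from limma, for KO against WT over both ages and for P60 against P25 over both genotypes, with called members in orange. All genotype intervals cross 0 and lie within -0.29 and 0.21, while Ppp1r1b and Adcy5 lie below 0 and Pde10a above 0 for age.

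Age changed 3 of the 9 members over both genotypes. Ppp1r1b was lower at P60, with a log2 fold change of -0.31 ± 0.06 (SE), or -19.5% (adjusted p = 0.000647, limma). Adcy5 was lower as well, at -0.21 ± 0.04, or -13.4% (adjusted p = 0.00101, limma). Pde10a was higher, at 0.28 ± 0.06, or 21.2% (adjusted p = 0.00231, limma). A two-sided exact permutation test within genotypes gave p = 0.005 for each of these 3 genes, the smallest that its 400 arrangements can give. Age differences were common in the table: 37.6% of genes tested were called, 18.3% higher and 19.3% lower at P60, so 1 of 9 members higher and 2 of 9 lower is near the background. The ages did not overlap for 2 of 9 members, Ppp1r1b and Adcy5, and for 19.6% of all genes.

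The other 6 members were not called for age. Adora2a had a log2 fold change of -0.16 ± 0.07 (limma adjusted p = 0.102), Gpr6 -0.19 ± 0.09 (0.117) and Rgs9 0.12 ± 0.05 (0.0992). Each had an unadjusted p near 0.05, Rgs9 passed the threshold when every library was scaled to the same total, and Gpr6 when P60-KO replicate 3 was left out. The dopamine receptors differed less, with 0.02 ± 0.08 for Drd1 and -0.07 ± 0.05 for Drd2, and Rasd2 stood at -0.06 ± 0.04.

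Within WT, P60 differed from P25 for 2 of 9 members, Ppp1r1b at -0.33 ± 0.08 (SE, adjusted p = 0.0356, limma) and Pde10a at 0.33 ± 0.08 (adjusted p = 0.0408), where 8.65% of all genes were called. The groups did not overlap for 3 of 9, these and Adcy5, against 36.0% of all genes. Both calls were lost when P25-WT replicate 1 or any 1 of the P60-WT libraries was left out (0 of 9), whereas leaving out P25-WT replicate 2 gave 3 of 9. Within KO, Adcy5 at -0.22 ± 0.05 (adjusted p = 0.0171) and Ppp1r1b at -0.29 ± 0.08 (adjusted p = 0.0252) were called, 2 of 9 where 20.7% of all genes were called. Pde10a was at 0.23 ± 0.08 (limma adjusted p = 0.0702). It ranged from 0.12, without P60-KO replicate 3, to 0.29 when 1 library was left out. The KO ages did not overlap for 4 of 9, these 3 and Rasd2, against 39.4% of all genes. The KO count was 0 without P25-KO replicate 3 or P60-KO replicate 1, 1 without P25-KO replicate 2 or P60-KO replicate 3, and 3 without P60-KO replicate 2. Since the interaction was called for no member, the age changes of the 2 genotypes were not shown to differ.

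Because the called members moved in opposite directions, their balance within a library was also computed, after the values had been seen and therefore without a test. The ratio of Pde10a to Adcy5 normalized counts was 0.562 ± 0.0336 at P25 and 0.787 ± 0.0582 at P60 (SD, n = 6). Its values ran from 0.524 to 0.614 at P25 and from 0.694 to 0.854 at P60, with no overlap. The ratio of Pde10a to Ppp1r1b likewise went from 0.800 ± 0.0947 to 1.21 ± 0.152. A ratio within a library is not affected by a scaling factor common to its genes.

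The balance of the pathways was described by the ratio of Drd1 to Drd2. In P60-KO it was 0.938, 1.0 and 0.946, and in P60-WT 1.12, 1.05 and 1.24, so the groups did not overlap. Their means were 0.963 ± 0.0357 and 1.13 ± 0.0948 (SD, n = 3). At P25 the ratio ran from 0.802 to 1.09 in KO and from 0.971 to 1.04 in WT, so that KO and WT overlapped. With Adora2a in place of Drd2, the P60 ratios were 0.754 ± 0.0676 in KO and 0.814 ± 0.105 in WT (SD, n = 3), which overlapped. Over both genotypes that ratio was 0.784 ± 0.0857 at P60 and 0.690 ± 0.0440 at P25 (SD, n = 6), and the ages overlapped. These ratios too were chosen after the values had been seen. For them 8 two-sided exact permutation tests were computed, for genotype and for age. Their unadjusted p-values ran from 0.045 to 0.84 and their adjusted p-values from 0.267 to 0.84. Tests within 1 age have 20 arrangements and cannot give a p under 0.1, which the P60 Drd1 to Drd2 ratio had. They could therefore not have passed 0.05, and the ratios are given as descriptions only.

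**Figure D4:**
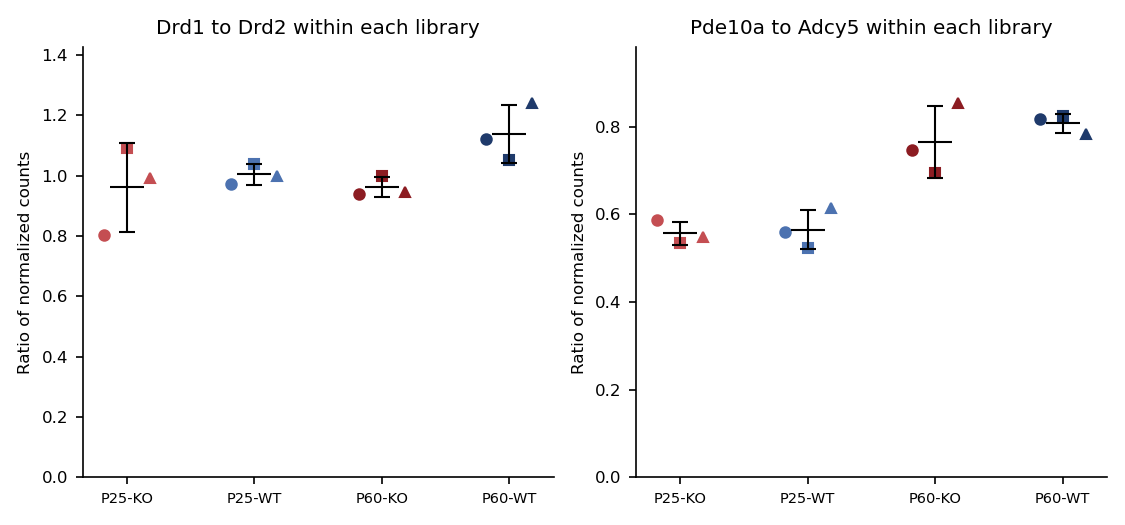
Ratio of normalized counts of Drd1 to Drd2 and of Pde10a to Adcy5 in each of the 12 libraries by group, with replicates 1, 2 and 3 as circles, squares and triangles and the mean and SD (n = 3), on axes that start at 0. The Drd1 to Drd2 ratio is lower in the 3 P60-KO libraries (0.938 to 1.0) than in the 3 P60-WT libraries (1.05 to 1.24), and the Pde10a to Adcy5 ratio is higher in all P60 than in all P25 libraries.

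Other genes of the same neurons were examined as lists. Of 30 other genes enriched in striatal projection neurons, 0 were called for genotype at P25, at P60 or over both ages (limma), and 0, 3 and 2 had an unadjusted p under 0.05. Those named at P60 were Foxp1, a transcription factor gene (-0.17 ± 0.06, limma unadjusted p = 0.0196), and Pdyn, which encodes prodynorphin of direct-pathway neurons (0.15 ± 0.06, limma unadjusted p = 0.0363), both with an adjusted p of 1.0. For age, 8 of 30 were higher and 8 of 30 lower at P60, with a median log2 fold change of 0.00 against 0.004 over all genes, of which 18.3% were called higher and 19.3% lower. Meis2, a homeobox gene (0.29 ± 0.04), Rgs7bp, whose product anchors RGS9 and related regulators at the membrane (0.34 ± 0.05), and Gnal, the gene of the olfactory-type G protein alpha subunit coupled to the receptors of Drd1 and Adora2a (0.23 ± 0.05), were higher. Gng7, the gamma subunit gene that partners Gnal (-0.30 ± 0.05), Strn, which encodes striatin (-0.29 ± 0.06), and Spata2l (-0.35 ± 0.07) were lower.

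Of 9 genes of the direct pathway, Drd1 among them, 2 were higher and 1 lower at P60 over both genotypes, against the same 18.3% and 19.3% of all genes. Isl1 (0.38 ± 0.09) and Ebf1 (0.31 ± 0.09), transcription factor genes of these neurons, were higher, and Pdyn was lower (-0.22 ± 0.05). Of 8 genes of the indirect pathway that were in the table, Drd2, Adora2a and Gpr6 among them, 0 were called for age (limma), with 3 at an unadjusted p under 0.05. Among 48 tested genes of dopamine, adenosine and cAMP signalling outside the members, 10 were higher and 10 lower at P60, near those shares, with a median of -0.01. Adcy1, a calcium-activated cyclase of cortex and hippocampus, rose from 23300 ± 459 to 31100 ± 2090 normalized counts (SD, n = 6, limma adjusted p = 8.07e-06). Prkaca, the catalytic subunit gene of protein kinase A (-0.29 ± 0.04), and Rgs4 (-0.37 ± 0.05), a regulator of Gi and Gq proteins, fell. For genotype, 0 genes of these 3 lists were called at either age (limma), and at an unadjusted p under 0.05 there were 3 of the direct pathway at P60, Drd1 and Pdyn among them, and 0 in the other lists and at P25. Over both ages it was 1 gene, Pdyn (0.14 ± 0.05, limma unadjusted p = 0.0133, adjusted p 1.0).

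To gauge how much striatum each library held, the mean log2 deviation of the 9 members from their 12-library means was computed per library. It was -0.03, 0.09 and 0.09 in P25-KO, -0.01, 0.04 and 0.02 in P25-WT, -0.13, -0.07 and 0.05 in P60-KO, and -0.02, -0.08 and 0.05 in P60-WT. The groups overlapped, with P60-KO replicate 1 lowest. The range was 0.22, and the summed level ran from 34200 to 39900 normalized counts, or 1.17-fold. The 30 other striatal genes varied less, over a range of 0.10 and a summed level of 95810 to 102800 (1.07-fold). The same libraries were lowest and highest in score. A mean over 30 genes tends to spread less than a mean over 9 by averaging alone, so the ranges are not a like measure. The first score includes the 3 members that changed with age, 1 higher and 2 lower at P60, whose changes partly cancel in the mean. The libraries do not separate regions, so any expression of these genes outside the striatum is counted too. Similar scores thus do not by themselves show equal striatum.

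Markers of neighbouring regions and of other cells were read beside these scores. Cortical markers had a score range of 0.20 (1.14-fold in summed level), hippocampal markers 0.27 (1.4-fold) and thalamic markers 0.16 (1.11-fold). Score ranges were wider for hypothalamic markers (0.38, 1.31-fold) and choroid plexus (0.66, 1.74-fold). Markers of cholinergic interneurons, which also live in the striatum, had 0.47 (1.41-fold). The 6 cholinergic markers summed to only 565.3 to 794.6 normalized counts. Of 12 hypothalamic markers 10 were in the table, 2 of them with a mean under 10. Agrp, a hypothalamic marker, was at 0 in P60-WT replicate 1, which had the lowest score of that list (-0.22). Olfactory bulb markers ranged from -0.52 in P60-WT replicate 3 to 0.35 in P25-WT replicate 3, a summed level of 3862 to 5572 normalized counts (1.44-fold), and none of the 10 was at 0 in any library. Positive and negative scores of this list were found in every group. Replicate 3 was the lowest library in both P60 groups, at -0.39 in KO and -0.52 in WT, and replicate 1 in both P25 groups, at -0.26 and -0.37. For this list 0 of 10 genes were called for genotype at either age (limma), also at an unadjusted p under 0.05. The part of these markers in the members' values was not tested.

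The same lists were read for age over both genotypes, where 18.3% of all genes were called higher and 19.3% lower at P60, and no list was tested as a whole. Oligodendrocyte markers were lower at P60 for 9 of 10 genes, with a median log2 fold change of -1.26 and a summed level of 197600 to 522200 over the libraries. Astrocyte markers were lower for 6 of 8, and cortical markers for 9 of 20 with 2 higher. Choroid plexus markers were higher for 4 of 8. Their part in the age changes of Ppp1r1b, Adcy5 and Pde10a was not tested. When all libraries were scaled to the same total, these 3 members were still called over both genotypes. Within WT the Ppp1r1b call was then lost (limma adjusted p = 0.0525). Such scaling shifts all genes of a library alike, so it does not address the part of the markers.

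**Figure D5:**
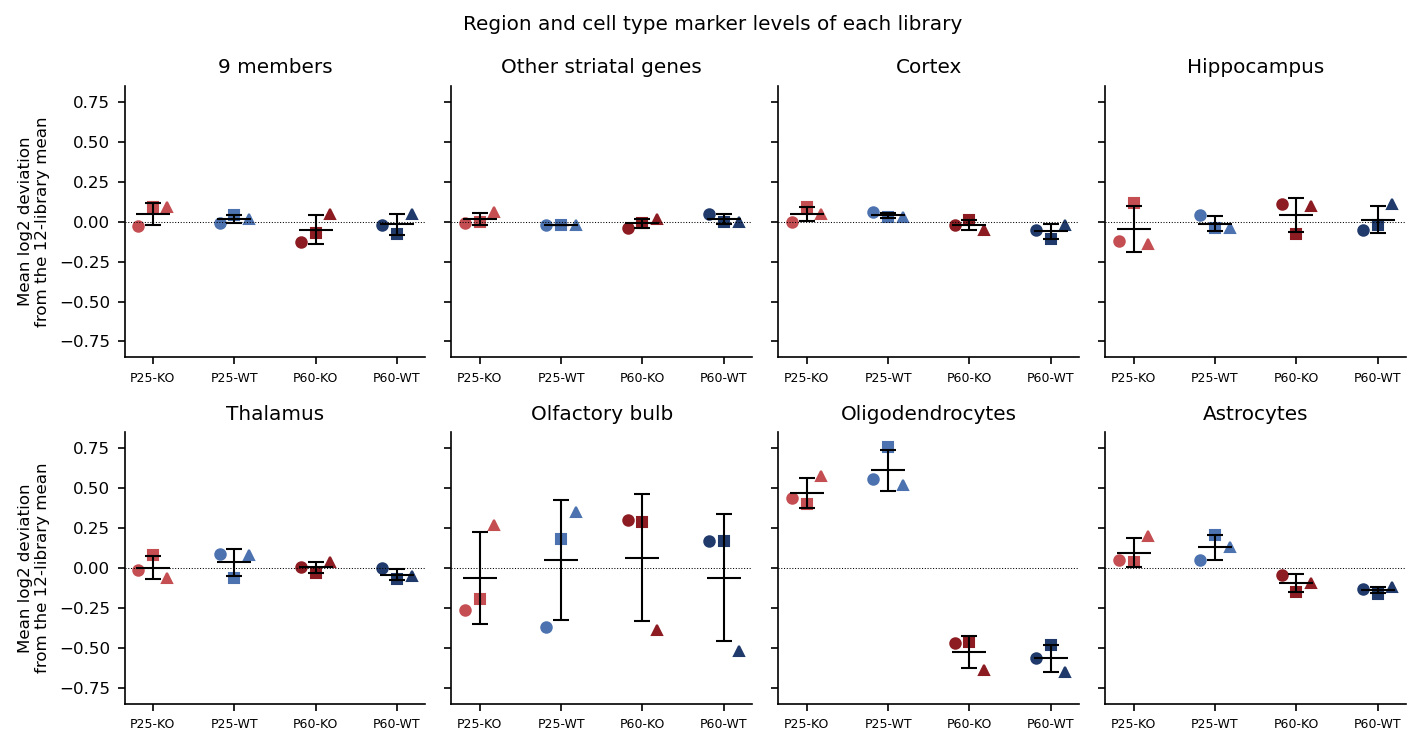
Mean log2 deviation from the 12-library mean for the 9 members, 30 other striatal genes and markers of other regions and cells, per library and group, with replicates 1, 2 and 3 as circles, squares and triangles and the mean and SD (n = 3). The striatal scores stay within -0.13 and 0.09, olfactory bulb markers spread from -0.52 to 0.35 inside the groups, and oligodendrocyte markers separate the ages.

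The members also varied to different degrees within groups. The residual SD of log2 values was 0.048 for Rasd2, 0.059 for Drd2 and 0.062 for Adcy5, and it was smaller in only 3.01%, 6.85% and 8.65% of 12907 genes with a mean of at least 100. Gpr6 at 0.173, Adora2a at 0.149 and Drd1 at 0.142 were above the median of 0.124. As a description over 12 libraries that share one scaling, the deviations from group means had a median Pearson r of 0.36 over the 36 pairs of members, of which 28 were positive. Drd1 and Adcy5 were most alike (r = 0.90), and Ppp1r1b and Pde10a least (r = -0.45). Without P25-KO replicate 1 and P60-KO replicate 3, the libraries farthest from the middle, the median fell to 0.22. In P60-KO replicate 3, 8 of 9 members exceeded their group mean, and in P25-KO replicate 1 and P60-KO replicate 1 only 1 of 9 did.

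Genes outside the members whose within-group deviations were most like the members' mean deviation were Zfp84 (r = 0.89), Pcdhb19 (0.89) and Notch4 (0.88), and those least like it were Gm16701 (-0.94) and Cygb (-0.92), over 12 libraries and 12907 genes. None of these belonged to the lists of striatal or regional genes. The 29 other striatal genes with a mean of at least 100 had a median r of 0.23, with 20 positive, against 0.02 over all genes compared. Of the related lists, 47 cAMP signalling genes had a median of 0.22 (33 positive), 8 direct-pathway genes 0.10 (5 positive) and 3 indirect-pathway genes -0.31 (1 positive). Lists of other cells and regions lay on both sides of the striatal list. Above 0 were astrocyte markers at 0.28, choroid plexus at 0.21, cortex at 0.17, hypothalamus at 0.12 and hippocampus at 0.04, and the thalamus stood at 0.00. Below 0 were microglia at -0.19, oligodendrocytes at -0.28, olfactory bulb at -0.49 (6 of 6 negative) and cholinergic markers at -0.64 (3 of 3 negative). The correlations rest on few libraries and are given without a test.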

How the data were processed

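Forebrain RNA of 12 mouse libraries was measured, with groups and replicate numbers taken from the sample titles. Libraries were made with the TruSeq RNA v2 kit, and the labels give no batch or sequencing date. The submitters' processing notes name Salmon 1.1.0, R 3.6.2, DESeq2 1.26.0 and GRCm38. The deposited values are signal on a count scale, which the authors obtained by normalizing Salmon estimates over all 12 libraries. They are not whole reads, so no count model was fitted, and depth is unknown. The transcriptome release used by the authors is not given in the sources used here. Symbols and lengths came from GENCODE M21, with 19252 of 19268 identifiers found.

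Values were tested as log2(value + 1) with limma 3.58.1 in R 4.3.3 (eBayes with an intensity trend), over genes with a mean of at least 10 in the libraries of the fit. Fold changes are on that scale, which understates those of low genes. A Benjamini-Hochberg adjusted p under 0.05 over all genes defined a call. KO and WT were compared at each age (6 libraries) and over both ages, P60 with P25 within each genotype and over both, and the interaction over 12 libraries. Exact permutation tests were two-sided and used scipy 1.17.1. The procedure was tested on simulated data.

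The named genes were the 9 members, Shank3, up to 3 genes per list and direction with the smallest adjusted p, or up to 2 by size of change at an unadjusted p under 0.05 where none was called, and genes by likeness (minimum mean 100). Members and lists were chosen with earlier results of these data known. Ratios were added after the values were seen. Alternatives changed the pseudocount, filter, scaling, variance model, weights, replicate block and libraries.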

Additional observations from a re-analysis of the deposited data

How the results depend on the processing

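The 0 of 9 members called for genotype and for the interaction, and the calls of Ppp1r1b, Adcy5 and Pde10a for age over both genotypes, held in all settings tried, those that left out a library included. Results within 1 genotype depended on the settings, and the cause was not tested. With 3 libraries a group and no read depth, small differences could not be resolved.

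For age in WT, 1 member was called with the same total per library, 0 without the trend and 4 with sample quality weights, and the genes called were 192 without the trend, 8250 with weights and 3439 with all 12 libraries in the fit, against 1521. For age in KO, members called were 0 without the trend, with 1725 genes against 3641. For genotype at P25, the genes called were 0 without the trend and 57 with weights, and at P60 0 without the trend, against 1 each. The Drd1 log2 fold change at P25 turned to 0.01 with the same total and 0.02 with weights, and the Ppp1r1b interaction to -0.03 with weights. With the 30 other striatal genes in place of the 9 members, the range of the striatal score over libraries was 0.10 against 0.22, and the lists differ in size.

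The replicate numbers were not treated as pairs, because in no comparison was every correlation of same-numbered libraries' deviations above 0.1. These correlations were 0.06, 0.166 and 0.129 for KO and WT at P60, and -0.072 to 0.058 in the other comparisons. Olfactory bulb scores were nevertheless lowest in the same replicate number of both genotypes at each age. Whether same-numbered libraries shared a batch was not tested. With the replicate block, 0 genes were called for genotype at P25, against 1, and 1 member for age in KO (Adcy5), against 2.

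Leaving out 1 library gave these ranges: members called 0 to 3 for age in WT, 0 to 3 in KO and 3 to 4 over both genotypes; genes called 0 to 8 for genotype at P25, 1 to 3 at P60, 122 to 2403 for age in WT, 2093 to 3230 in KO and 0 to 1 for the interaction. The log2 fold changes that crossed 0 were those of Drd1 for genotype at P25 (-0.08 to 0.10) and for age (-0.03 to 0.07), of Gpr6 (-0.04 to 0.06) and Pde10a (-0.07 to 0.01) for genotype over both ages, and of Adcy5 (-0.08 to 0.00) and Ppp1r1b (-0.03 to 0.13) for the interaction.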
